A study of Mus musculus with 5 samples.

Results

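The 8 genes described here, called partner genes below, encode members of the complex of the transcription factor TAL1, or relatives of such members. These are Lyl1, Lmo2, Lmo4, Ldb1, Tcf3, Tcf4, Tcf12 and Cbfa2t3. They were chosen by name, as 8 of 21000 protein-coding genes with a curated mRNA in RefSeq. A DNaseI hypersensitive site (DHS), a stretch of chromatin open enough for DNase I to cut, was given to a gene if it came within 1 kb of any annotated transcription start site (TSS) of the gene. It was also given to the gene if this was the nearest protein-coding gene and the site lay inside the gene or up to 100 kb from its TSS. By this rule the 8 genes held 157 of the 135173 sites listed over 5 stages of blood development. All cells came from a single line of mouse ES cells (strain 129) with a GFP reporter for the gene Brachyury (Bry), grown on embryonic fibroblasts and differentiated in culture. Sorting for Bry:GFP gave mesoderm (MES) from the FLK1- fraction and hemangioblasts (HB) from the FLK1+ fraction. Hemogenic endothelium (HE) was Tie2+ and cKit+ but CD41-, and its label gives Bry:GFP+ as well. Hematopoietic progenitors (HP) were CD41+, and macrophages (MAC), matured from CD41+ cells, were CD11b+. Each stage had 1 list of sites, so no spread between replicates can be given and no test was run. The MAC label names 2 replicates together, of which 1 joint list was analysed.

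TAL1 is a basic helix-loop-helix (bHLH) factor that binds DNA as a dimer with an E protein, encoded by Tcf3 (E2A), Tcf4 (E2-2) or Tcf12 (HEB), at a short motif called an E-box. The LIM-only protein LMO2 and the adaptor LDB1 link this dimer to a GATA factor, so that the complex can sit on an E-box and a GATA motif a short way apart, and ETO2, the product of Cbfa2t3, joins it as a corepressor. LYL1 is the closest relative of TAL1 and LMO4 a relative of LMO2. The complex is known for its role in the emergence of blood from endothelium and in erythroid and megakaryocytic cells.

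From MES to MAC the lists held 21949, 24729, 33305, 17734 and 37456 sites, with median widths from 600 bp (MAC) to 1200 bp (HE). They give positions only, without read depth, and the absence of a site means only that none was listed. Defining genes set the labels apart in part. Of the 4 mesodermal markers 4, 4, 3, 0 and 1 had promoter sites from MES to MAC, and of the 4 markers of hemogenic endothelium 1, 2, 4, 2 and 0. Of the 4 macrophage markers all had a promoter site in MAC, while Cd68 had a promoter site at every stage and the other 3 in MAC alone. The markers of hemangioblasts did not single out HB, since Etv2 had promoter sites from MES to HP and Kdr at every stage. Nor did those of progenitors single out HP, since Itga2b, which encodes CD41, had a promoter site in HE and HP, while Gfi1b had one in MAC alone and Myb in HE alone. Of the markers of other cells, fibroblast genes had promoter sites in MES, HB and HE (3 of 3 in each) and HP (1 of 3), cardiac genes in HE (2 of 2), erythroid genes in every stage (2 of 3) and pluripotency genes in MES and HB (2 of 3) and HE (1 of 3). What such cells contribute to the sites below was not tested.

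All 8 partner genes had a promoter site, meaning one within 1 kb of a TSS, in MES, HB, HE and MAC, and 7 had one in HP. Among all protein-coding genes the shares with a promoter site were 57.2%, 58.9%, 61.7%, 50.1% and 50.2% from MES to MAC. Of the 8 genes 7 had a promoter site in all 5 stages, against 43.4% of all genes, and Tcf12 was the exception. The sites of the 8 genes together numbered 24, 26, 44, 23 and 40 from MES to MAC. Of these, 11, 12, 15, 12 and 12 were promoter sites in the same order of stages, whereas other sites numbered 13, 14, 29, 11 and 28. The totals depend on the lengths of the lists: cut to the length of the shortest, HP, by width, the lists gave the 8 genes 16, 17, 25, 23 and 20 sites, so that MAC no longer had more than HP. The median over all genes was 1 site in every stage. The mean over all genes was higher for the longer lists, with a mean of 1.52 sites per gene in HE, 0.869 in HP and 1.69 in MAC.

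**Figure D1:**
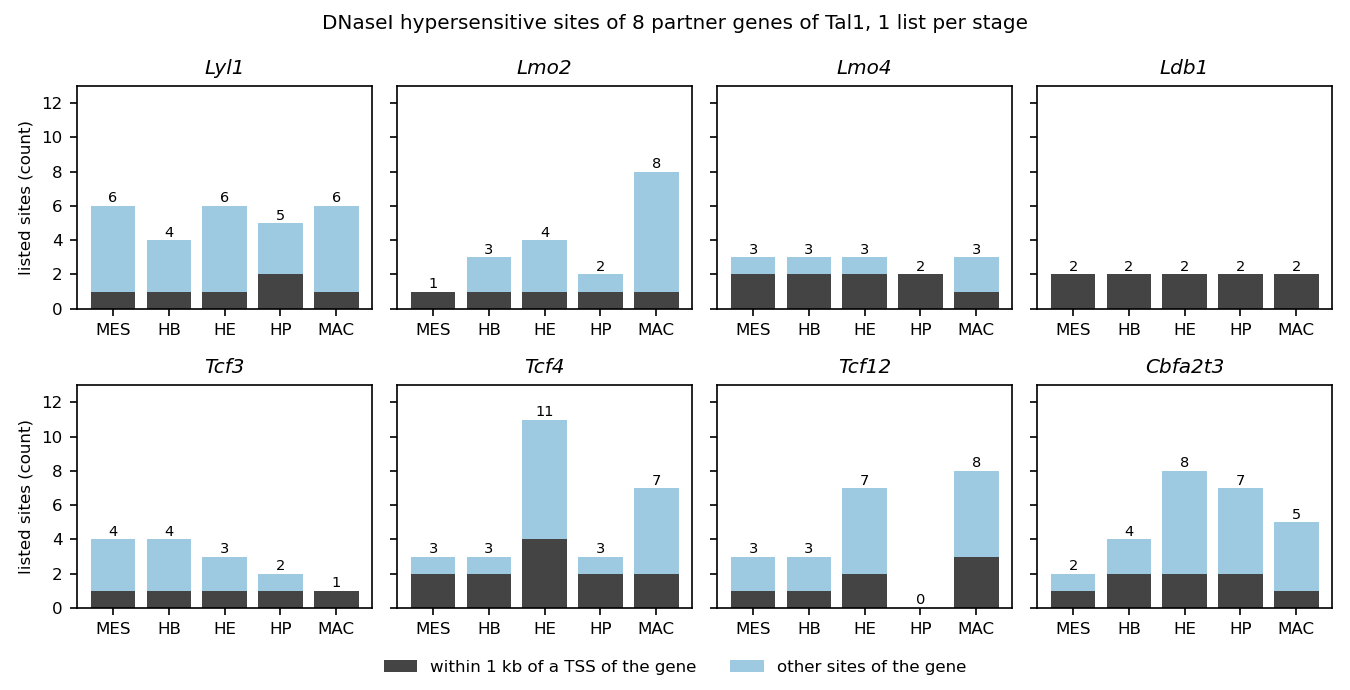
Number of listed DHSs (y axis, count) of each gene at each stage (x axis), split into sites within 1 kb of a TSS of the gene (dark) and its other sites (light), with 1 list per stage and no error bars. Ldb1 stayed at 2 promoter sites throughout, Tcf4 peaked at 11 sites in HE, Lmo2 at 8 in MAC, and Tcf12 had 0 in HP.

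The genes fell into different courses. Ldb1 had 2 sites in every stage and Lmo4 2 or 3. Tcf3 went from 4 sites in MES and HB to 3 in HE, 2 in HP and 1 in MAC. Cbfa2t3 had 2, 4, 8, 7 and 5 sites and Lmo2 1, 3, 4, 2 and 8 from MES to MAC. Over the 5 lists Lyl1 and Tcf4 had 27 sites each, a total that 98.7% of all genes did not exceed. They were followed by Cbfa2t3 with 26, Tcf12 with 21, Lmo2 with 18, Lmo4 and Tcf3 with 14 each and Ldb1 with 10, a total that 82.7% of genes did not exceed. The courses depend on the lists. In lists of equal length Ldb1 stayed at 2 sites and Tcf12 at 0 in HP, and Tcf4 still had most in HE (2, 2, 7, 3 and 4 from MES to MAC) and Lmo2 in MAC (1, 2, 2, 2 and 4). The other courses changed, to 2, 2, 3, 5 and 2 at Lyl1, 3, 3, 1, 2 and 2 at Lmo4, 4, 2, 1, 2 and 1 at Tcf3, 2, 2, 3, 0 and 2 at Tcf12 and 0, 2, 6, 7 and 3 at Cbfa2t3. At the median width Lyl1 had 0, 2, 3, 2 and 5 sites and Tcf3 1 in every stage. The totals include sites outside the genes, whose lengths run from 3.29 kb (Lyl1) to 345 kb (Tcf4).

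To follow single stretches of chromatin, the central 500 bp of every site were taken and overlapping windows were joined into merged regions, with the smallest overlap that the study used. A region counts as open in those stages that have such a window in it, so a wide site whose middle lies elsewhere does not count. Of the 75 regions of the 8 genes, 9 were overlapped by a site of a further stage that was not counted in this way. All lists together gave 68846 merged regions. Distances below run from the middle of a region to the nearest TSS of a curated mRNA of the gene, with a minus sign for upstream, and positions are those of GRCm38/mm10.

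Lyl1 (chr8:84701423-84704716, plus strand), a bHLH gene of 3.29 kb, had 6, 4, 6, 5 and 6 sites in MES, HB, HE, HP and MAC. Its promoter sites at the TSS were 400, 900, 2400, 900 and 600 bp wide in the same order, and the MES site stopped 138 bp short of the TSS. The middle of the HE site lay apart from the others and gave the widest region of a single stage, at -0.734 kb (chr8:84700474-84700973). HP had a further promoter site of 700 bp that ended 881 bp upstream. Of all HE promoter sites, 99.2% were no wider than that of Lyl1. Most of its sites lay beyond the gene in its 3′ direction, in a stretch that overlaps the neighbouring gene Nfix, which encodes a nuclear factor I protein. The region at +7.89 kb (chr8:84709074-84709625) was open in all 5 stages with sites of 200 to 600 bp. Regions at +3.14 kb (chr8:84704274-84704924, in the untranslated part of an exon) and at +29.5 kb (chr8:84730595-84731223, inside Nfix) were open in MES, HB, HE and HP but not in MAC. From MES to HP the sites at +29.5 kb measured 700, 1000, 1500 and 1100 bp. They were widest in HE and had no counterpart in MAC. A region at +6.15 kb (chr8:84707245-84707973) was open in MES, HE and MAC, which are not neighbouring stages. With the nearest of all annotated genes in place of protein-coding genes, Lyl1 had 4, 3, 4, 4 and 5 sites from MES to MAC. Its promoter sites did not change, so sites far from the gene, such as those at +29.5 kb, need not be its own. The region at +29.5 kb is the only one of the 10 regions beyond 2 kb open in 3 or more stages that held a composite motif among the 8 whose sequence was searched, and its central 250 bp are therefore printed (plus strand). The composite motif was CTG, 7 or 8 bases of any kind and AGATAA, which joins a part of an E-box to a GATA motif. Capitals mark matches on either strand to it, to the GATA motif AGATAA and to the E-box CAGCTG, and the composite reads CTGtgaacaggAGATAA on the minus strand at chr8:84730979-84730995.
Lyl1 +29.5 kb region, chr8:84730785-84731034: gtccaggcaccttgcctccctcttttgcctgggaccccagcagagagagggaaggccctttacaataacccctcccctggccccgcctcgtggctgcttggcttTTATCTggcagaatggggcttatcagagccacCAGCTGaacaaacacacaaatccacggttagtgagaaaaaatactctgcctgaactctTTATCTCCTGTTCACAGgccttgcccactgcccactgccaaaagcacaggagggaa

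Tcf4 (chr18:69343429-69687967, plus strand), the longest of the 8 genes with 24 annotated TSSs, had 3, 3, 11, 3 and 7 sites from MES to MAC. No more than 11 sites in HE were found for 99.7% of genes. The 3 sites of MES, HB and HP were not all the same. A TSS near the start of the gene (chr18:69344492, region chr18:69344058-69344833) and one far within it (chr18:69593583, region chr18:69592784-69593607) had a site in every stage, 1000, 1000, 1600, 1000 and 700 bp wide at the former and 500, 400, 1700, 1000 and 1100 bp at the latter. The sites at the former also came within 1 kb of the TSSs at chr18:69343429 and chr18:69345679-69346160 but stopped 296 to 872 bp short of them, and the HB site at the latter stopped 73 bp short. The third site was at +5.90 kb in MES and HB (chr18:69351808-69352310) and at +69.8 kb in HP (chr18:69415450-69416371). The latter region was also open in HE and MAC, so it separated the 3 later stages from the 2 earlier ones. Of its 15 merged regions 7 were open in HE alone and 3 in MAC alone. All of the 7 HE-only regions lay inside the gene, and those near chr18:69348421 and chr18:69521521 reached annotated TSSs that had no site in another stage. The widest regions of a single stage had sites of 1300 bp in HE and lay in introns at +126 kb (chr18:69472384-69472883) and +176 kb (chr18:69521484-69521983). From HE to HP 3 of 11 regions were kept and none was opened.

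Tcf3 (chr10:80409541-80433976, minus strand) had a single promoter site in every stage, at the TSS chr10:80433635, with widths of 1100, 1300, 1700, 1200 and 1100 bp from MES to MAC. A TSS within the gene (chr10:80421865) had none. Of its 5 other regions none was open in MAC. Those at -17.3 kb (chr10:80450577-80451262) and +9.87 kb (chr10:80423513-80424026, in an intron) were open in MES and HB, and one at +3.12 kb in MES alone. A region at -12.7 kb (chr10:80446061-80446660) was open in HB, HE and HP with sites of 400, 600 and 400 bp, and the widest region of a single stage, at -27.6 kb (chr10:80460961-80461460), had a site of 600 bp in HE. In MAC only the promoter site was listed. The number of sites in MAC was that of a common gene, since 62.7% of genes had no more than 1, whereas 98.1% had no more than the 4 of MES.

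Tcf12 (chr9:71844252-72111893, minus strand) had 3, 3, 7, 0 and 8 sites from MES to MAC. HP therefore stood apart from the 4 other lists. The gap reached beyond the gene: no HP site was listed over 580 kb (chr9:71694529-72274830), a stretch with 5, 7, 11 and 12 sites in the lists of MES, HB, HE and MAC. The HP list was the shortest and left 8709 of the 21000 genes with no site at all. Of the 9482 genes with a promoter site in MES, HB, HE and MAC, 376 (3.97%) had none in HP. Of the 832 genes with at least 3 sites in each of those lists, 31 (3.73%) had no HP site, and Tcf12 was among them. The remaining stages also differed at its TSSs. The upstream group (chr9:72111201-72111893) had sites of 900, 1300 and 1300 bp from MES to HE and 2 of 400 bp each in MAC. A curated TSS within the gene (chr9:71896096) had a site of 1200 bp in HE and of 700 bp in MAC and none in MES, HB or HP. A region at -21.4 kb (chr9:72132901-72133600) was open in MES, HB, HE and MAC with sites of 900, 1100, 1500 and 600 bp, the same stages as the upstream TSSs, and like them was rich in CpG. The widest region of a single stage (chr9:72169551-72170050, -58.0 kb) had a site of 1400 bp in HE. A promoter of the upstream group and that within the gene are shown for their different stages (RefSeq, GRCm38.p6, minus strand, 250 bases before to 50 after a TSS). The upstream sequence printed was covered by sites of MES, HB and MAC. The HE site of that group (chr9:72110301-72111600) did not reach it. The upstream promoter had a GC share of 0.717 and, as its CpG ratio (CpG observed over CpG expected from the base composition), 1.06. The internal one had 0.363 and 0. Capitals mark the E-box CAGCTG, the ETS motif AGGAAG (here as its reverse complement) and the TEAD motif CATTCC, found in 16.3%, 35.4% and 14.7% of all 32851 promoters.
Tcf12 upstream, chr9:72111770-72112069: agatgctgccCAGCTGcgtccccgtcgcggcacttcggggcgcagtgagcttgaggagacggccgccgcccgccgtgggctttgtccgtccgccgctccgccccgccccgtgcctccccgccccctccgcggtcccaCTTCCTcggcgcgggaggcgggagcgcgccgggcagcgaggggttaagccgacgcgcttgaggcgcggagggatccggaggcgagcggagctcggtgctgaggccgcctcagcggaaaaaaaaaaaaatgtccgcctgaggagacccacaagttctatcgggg
Tcf12 internal, chr9:71896047-71896346: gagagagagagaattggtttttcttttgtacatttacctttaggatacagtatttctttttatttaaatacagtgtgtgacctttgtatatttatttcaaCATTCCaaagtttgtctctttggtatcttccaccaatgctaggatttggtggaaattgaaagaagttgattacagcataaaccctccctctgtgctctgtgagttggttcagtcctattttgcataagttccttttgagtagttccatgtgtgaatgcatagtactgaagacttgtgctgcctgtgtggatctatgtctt

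**Figure D2:**
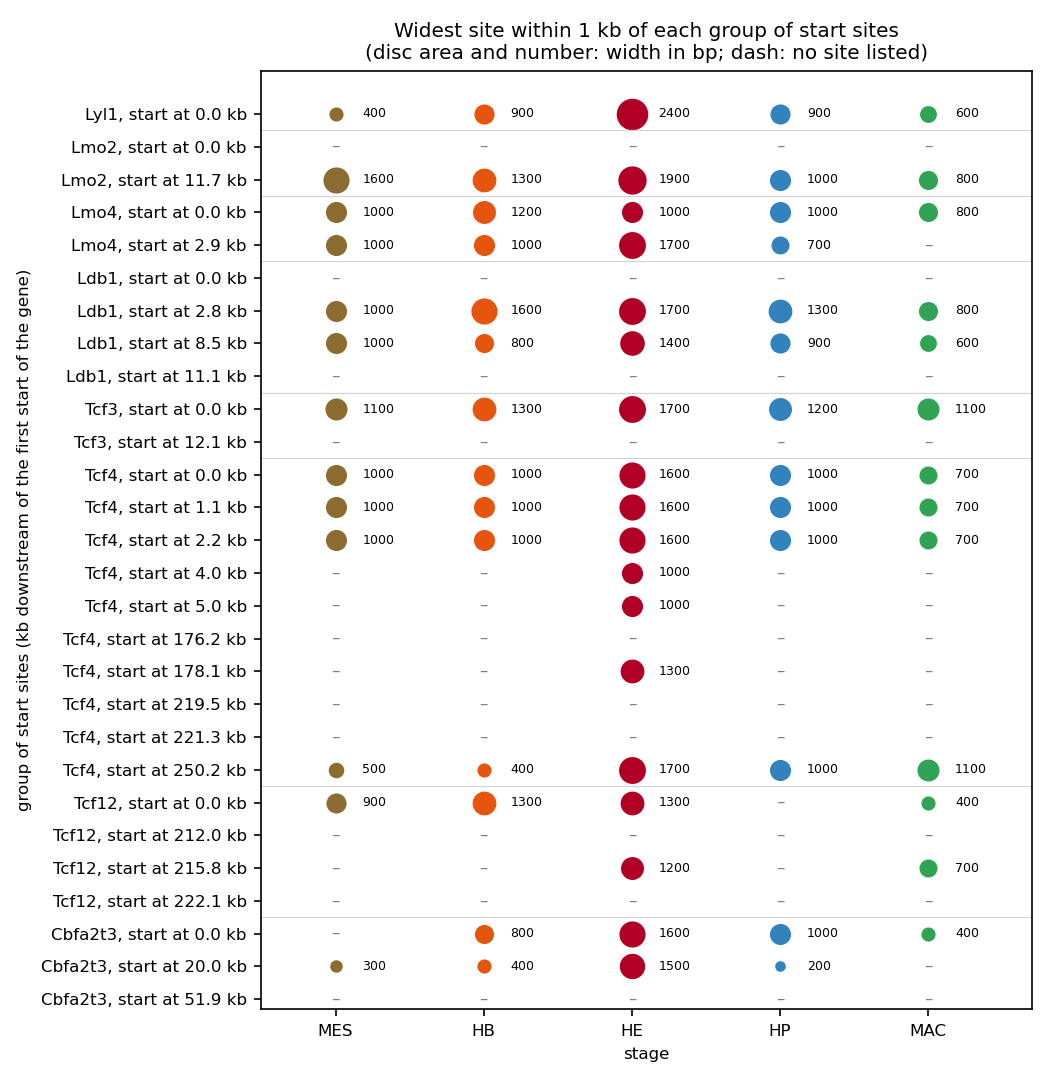
Width in bp (disc area and number) of the widest site within 1 kb of each group of annotated TSSs (rows, by distance in kb from the first TSS of the gene) at each stage (x axis), with a dash where none was listed and 1 list per stage. Ldb1, Tcf3 and Lmo2 had at least 1 group with a site in all 5 stages, while the upstream group of Cbfa2t3 lacked one in MES, the internal group of Lmo4 in MAC and every group of Tcf12 in HP.

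Lmo2 (chr2:103957903-103981878, plus strand), which encodes the bridging protein, had 1, 3, 4, 2 and 8 sites from MES to MAC. All promoter sites were at the downstream TSSs (chr2:103969557-103970287), with widths of 1600, 1300, 1900, 1000 and 800 bp, and none was listed at the upstream TSSs (chr2:103957903-103957995). In MES the site was wide for its list, as 98.7% of MES promoter sites were no wider. The other 11 regions all lay upstream, between -76.4 and -2.07 kb, in a stretch known to hold enhancers of Lmo2 active in blood and endothelial cells. MES had none of them. HB had those at -76.4 kb (chr2:103881348-103881847) and -64.0 kb (chr2:103893698-103894219). The latter was open again in HP, with sites of 900 bp in HB and 1100 bp in HP, but not in HE, where sites of 1200 and 1100 bp at -61.5 and -57.2 kb were open instead. Only 176 regions of the whole series (0.256%) had this pattern of HB and HP. In MAC 7 upstream regions were open, 6 of them in MAC alone, of which that at -12.4 kb (chr2:103945375-103945874) had the widest site with 1200 bp. The region at -61.5 kb (chr2:103896220-103896719) shares this width. The region at -51.4 kb (chr2:103906220-103907024) was open in HE and MAC. Thus no upstream region of Lmo2 was open in more than 2 stages. This set of regions depended on how sites are given to genes: several noncoding RNA genes lie upstream, and with the nearest of all annotated genes in place of protein-coding genes only 1 upstream site was left to Lmo2, in MAC. With sites up to 50 kb from a TSS, HB, HE and HP had no upstream site and MAC had 4.

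Lmo4 (chr3:144188530-144205255, minus strand), the relative of Lmo2, had 3, 3, 3, 2 and 3 sites. Its upstream TSS (chr3:144205255) had a site in all 5 stages, 1000, 1200, 1000, 1000 and 800 bp wide, and the HE site stopped 173 bp short of the TSS. The TSSs within the gene (chr3:144202332-144202396) had sites of 1000, 1000, 1700 and 700 bp in MES, HB, HE and HP and none in MAC. The same 4 stages had promoter sites at Gata2, which encodes a GATA factor of the complex, and Runx1t1, the relative of Cbfa2t3. A region at +3.54 kb (chr3:144198466-144199127), in an intron, was open in MES, HB, HE and MAC but not in HP, with a MAC site of 200 bp. The widest region of a single stage, at +91.5 kb (chr3:144110566-144111065), had a site of 600 bp in MAC. The promoter within the gene is shown for its pattern of stages (RefSeq, GRCm38.p6, minus strand, 250 bases before to 50 after the TSS). It had a GC share of 0.727 and a CpG ratio of 0.885, and held none of the motifs searched, so it has no capitals.
Lmo4 internal, chr3:144202283-144202582: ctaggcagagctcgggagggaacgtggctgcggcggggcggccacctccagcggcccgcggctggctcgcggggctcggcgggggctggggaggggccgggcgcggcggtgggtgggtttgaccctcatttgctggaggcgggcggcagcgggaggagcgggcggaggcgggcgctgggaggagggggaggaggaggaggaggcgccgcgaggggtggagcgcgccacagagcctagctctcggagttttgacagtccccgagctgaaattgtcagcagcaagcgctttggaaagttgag

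Ldb1 (chr19:46031525-46048145, minus strand), the adaptor of the complex, had 2 promoter sites and no other site in each of the 5 stages. At chr19:46045311 the sites were 1000, 1600, 1700, 1300 and 800 bp wide from MES to MAC, and at chr19:46039621 they were 1000, 800, 1400, 900 and 600 bp wide. The middle of the HE site at the former lay apart from those of the other stages and formed a region of its own (chr19:46045730-46046229). Therefore from HB to HE and from HE to HP 1 of 2 regions was counted as kept, although sites of all 5 stages covered this TSS. The MAC site did not reach the region of HE. The TSSs at chr19:46048145 and chr19:46037070 had none. No listed site away from its promoters was given to Ldb1, which is also the shortest of these genes after Lyl1.

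Cbfa2t3 (chr8:122625136-122699332, minus strand), which encodes the corepressor ETO2, had 2, 4, 8, 7 and 5 sites from MES to MAC. At most 7 HP sites were found for 99.9% of genes. Its upstream TSSs (chr8:122699109-122699332) had no site in MES and sites of 800, 1600, 1000 and 400 bp in HB, HE, HP and MAC. The region at -21.1 kb (chr8:122719925-122720523) had the same pattern, with sites of 1300, 1900, 1500 and 800 bp and none in MES. These were the only 2 of the 75 regions with the pattern of HB to MAC, which 0.524% of all regions had. Among the other genes of the complex listed below, Tal1 was the only one whose promoter had a site in exactly these stages. Regions at -37.3, -12.9 and -7.48 kb were open in HE and HP, with sites of 1500 and 500 bp, 1500 and 1200 bp, and 1200 and 900 bp. The region at +11.8 kb (chr8:122666024-122666724), in an intron, was open in HB and HE with sites of 700 and 2100 bp and held a composite motif, CTGccaggcttAGATAA (chr8:122666479-122666495, minus strand). The widest region of a single stage was at +3.38 kb, with a site of 800 bp in MAC (chr8:122695476-122695975). The open stages were consecutive in all 6 of its regions open in 2 to 4 stages. A region at +1.03 kb (chr8:122676693-122677594) was open in all 5 stages with sites of 300, 400, 1500, 400 and 300 bp. At the internal TSSs (chr8:122678175-122679334) the sites of MES, HB and HE, 300, 400 and 1500 bp wide, stopped 681, 651 and 252 bp short of a TSS, and that of HP covered one with 200 bp, a width that only 0.111% of HP promoter sites did not exceed. They lay beside the internal promoter sequence printed here and not on it, in contrast to the upstream promoter. That one had a GC share of 0.637 and a CpG ratio of 0.33, and the internal one of 0.817 and 1.09. Both are from RefSeq (GRCm38.p6, minus strand, 250 bases before to 50 after the TSS). Capitals mark the E-box CAGATG, the E-box CAGCTG and the E-box CAGGTG, found in 17.2%, 16.3% and 20.2% of all promoters, and the motifs AGGAAG (ETS) and CATTCC (TEAD, here as its reverse complement).
Cbfa2t3 upstream, chr8:122699060-122699359: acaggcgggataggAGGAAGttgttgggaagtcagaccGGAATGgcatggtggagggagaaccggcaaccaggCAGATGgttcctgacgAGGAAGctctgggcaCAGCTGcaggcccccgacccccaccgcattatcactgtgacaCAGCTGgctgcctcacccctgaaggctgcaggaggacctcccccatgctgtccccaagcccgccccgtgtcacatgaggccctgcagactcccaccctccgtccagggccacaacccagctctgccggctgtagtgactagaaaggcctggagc
Cbfa2t3 internal, chr8:122678126-122678425: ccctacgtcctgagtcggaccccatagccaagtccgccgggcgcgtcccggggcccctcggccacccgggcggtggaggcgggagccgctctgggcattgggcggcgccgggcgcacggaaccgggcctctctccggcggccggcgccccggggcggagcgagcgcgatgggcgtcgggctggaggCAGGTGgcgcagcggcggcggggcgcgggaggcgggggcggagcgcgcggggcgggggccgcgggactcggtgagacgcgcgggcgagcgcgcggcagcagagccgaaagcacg

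**Figure D3:**
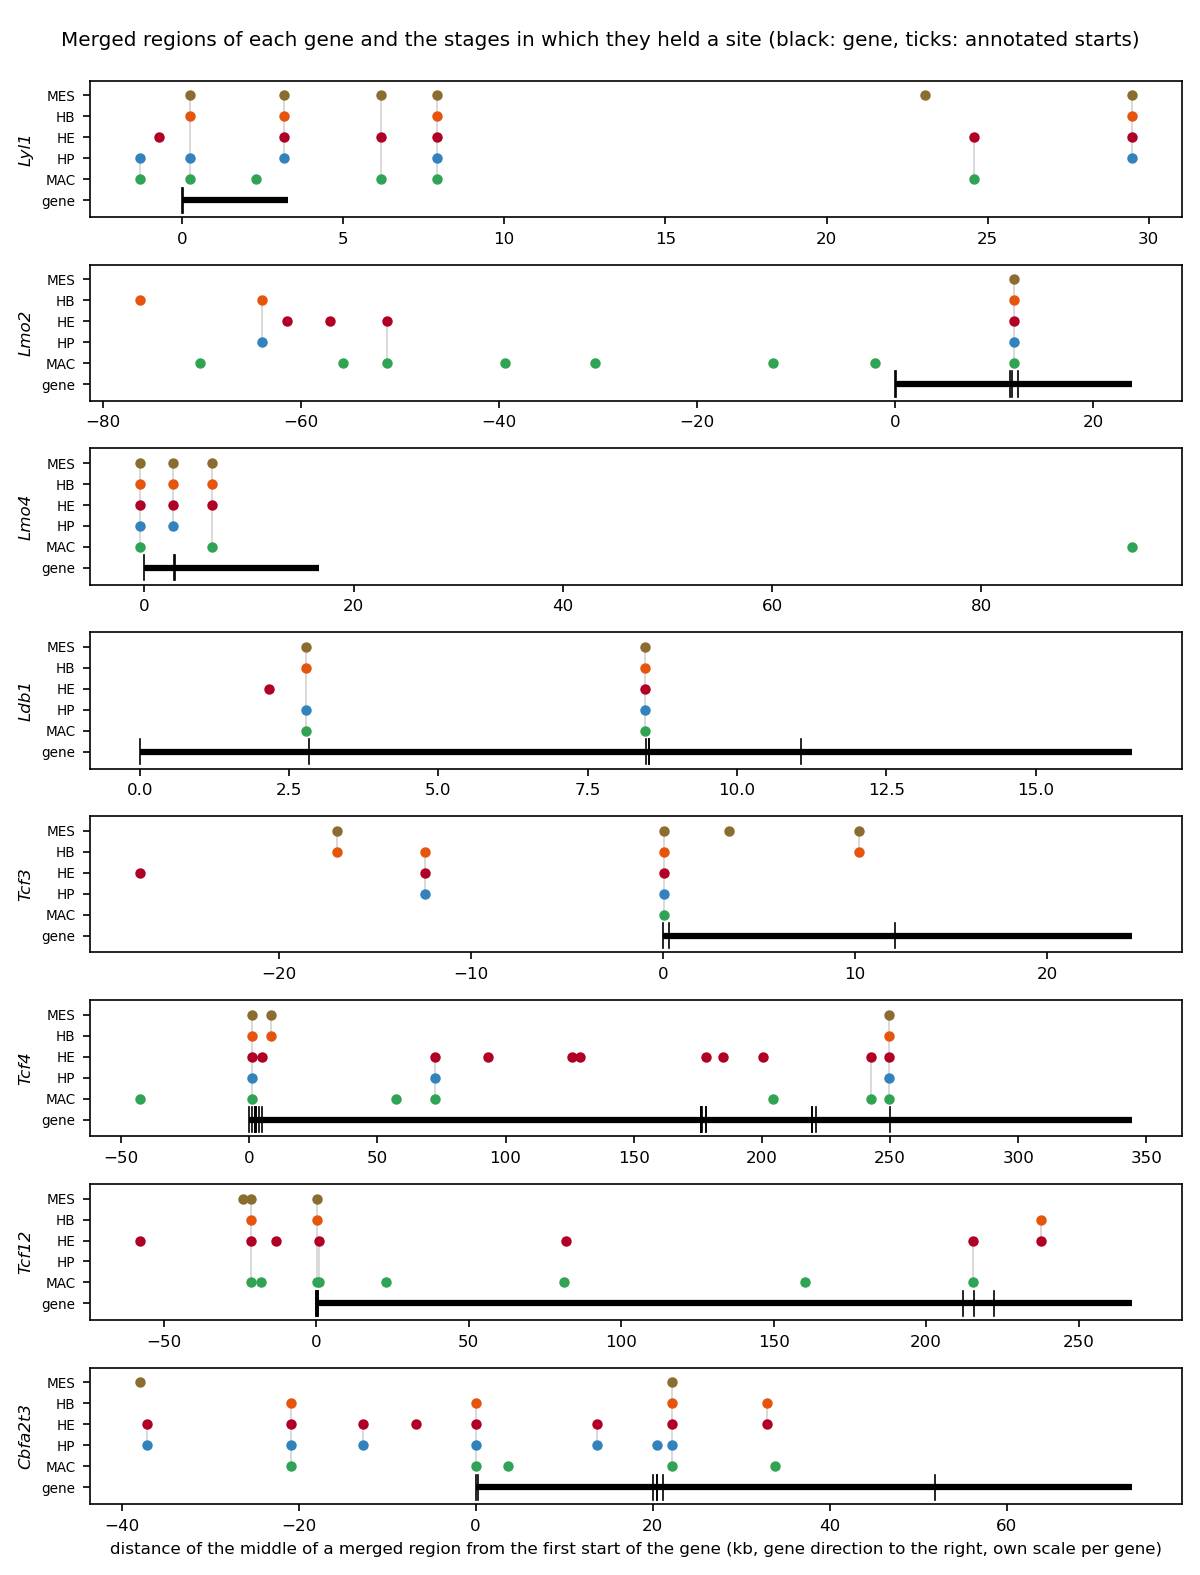
Merged regions of each gene (points, 1 per open stage, joined by a grey line) by distance in kb of their middle from the first TSS of the gene (x axis, own scale per gene, transcription to the right) and by stage (y axis). The 11 other regions of Lmo2 lie upstream of its promoter and change from stage to stage, Cbfa2t3 has regions shared by HE and HP, and the HP row of Tcf12 is empty.

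Of the 75 regions 8 were open in all 5 stages (10.7%, 95% Wilson interval 5.50 to 19.7, against 13.2% of all regions), 28 in 2 to 4 stages and 39 in a single stage (52%, interval 40.9 to 62.9, against 60.2%). The intervals cover counting error only. Lyl1, Lmo2, Lmo4, Ldb1, Tcf3 and Cbfa2t3 had 1 region each open in all 5 stages, Tcf4 had 2 and Tcf12 none. Those of Lmo2 (chr2:103969570-103970340), Lmo4 (chr3:144205236-144206177), Ldb1 (chr19:46039390-46039980) and Tcf3 (chr10:80433611-80434260) lay at promoters. Within 2 kb of a TSS, here and in what follows that of a curated mRNA, 6 of 17 regions were open in all 5 stages and 3 in a single one, where all regions gave 45.3% and 26.6%. Of the 58 regions beyond, 5 came within 2 kb of another annotated TSS. Beyond 2 kb, 2 of 58 were open in all 5 stages (3.45%, against 3.05% of all regions), of which that of Tcf4 lay at the annotated TSS within the gene, and 36 in a single one (62.1%, interval 49.2 to 73.4, against 70.8%). Of the 75 regions 17 were open in MAC alone (22.7%, against 31% of all regions) and 16 in HE alone (21.3%, against 17.1%). MES, HB and HP alone had 4, 1 and 1 (5.33%, 1.33% and 1.33%, against 4.1%, 5.65% and 2.26%). Lmo2 held 6 of those of MAC and Tcf4 7 of those of HE.

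Of the regions beyond 2 kb most were open in HE or MAC. In HE 32 of 58 were open (55.2%, interval 42.5 to 67.3), against 40.0% of all regions beyond 2 kb. In MAC 27 were open (46.6%, interval 34.3 to 59.2), against 51.7%. MES, HB and HP had 14, 15 and 11 of 58, where all regions gave 20.0%, 24.8% and 15.2%. Those shares were 24.1% (interval 15.0 to 36.5), 25.9% (16.3 to 38.4) and 19.0% (10.9 to 30.9). Regions of a gene are not independent, and Tcf4 held 14 of the 58. Without Tcf4, a split chosen after seeing the data, HE had 22 of 44 (50%, interval 35.8 to 64.2) and MAC 21 (47.7%, interval 33.8 to 62.1). The sites of HE were also the widest, with a median of 1600 bp for promoter sites of the 8 genes and of all genes alike, and the part of this in the share was not tested. By annotation 26 of the 75 regions lay in introns, 28 upstream and 6 downstream of the gene, 13 in the untranslated part of an exon and 2 in coding exons.

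Between neighbouring stages the shares of regions kept by the 8 genes were set beside those of all regions. Between MES and HB 19 of 24 persisted (79.2%, interval 59.5 to 90.8, against 81.5%). From HB to HE the share was 18 of 26 (69.2%, interval 50.0 to 83.5, against 63.7%) and 26 regions were opened. From HE to HP it was 18 of 44 (40.9%, interval 27.7 to 55.6, against 42.9%), the lowest of the 4 steps. From HP to MAC 14 of 23 were kept (60.9%, interval 40.8 to 77.8, against 66.2%) and 26 opened. In the step from HE to HP Cbfa2t3 kept 6 of 8 regions, Lmo4 and Tcf3 2 of 3 each, Lyl1 3 of 6, Ldb1 1 of 2, Tcf4 3 of 11, Lmo2 1 of 4 and Tcf12 0 of 7. By overlap of whole sites Lyl1 kept 6 of 8, Ldb1 3 of 3, Cbfa2t3 6 of 10 and Tcf12 0 of 8. The other genes did not change, and all 8 together kept 23 of 50. In the step from HB to HE Cbfa2t3 kept 4 of 4 and opened 4, and Tcf4 opened 9. Among the 28 regions open in 2 to 4 stages the open stages were consecutive in 16 (57.1%, interval 39.1 to 73.5), against 64.6% of all such regions.

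**Figure D4:**
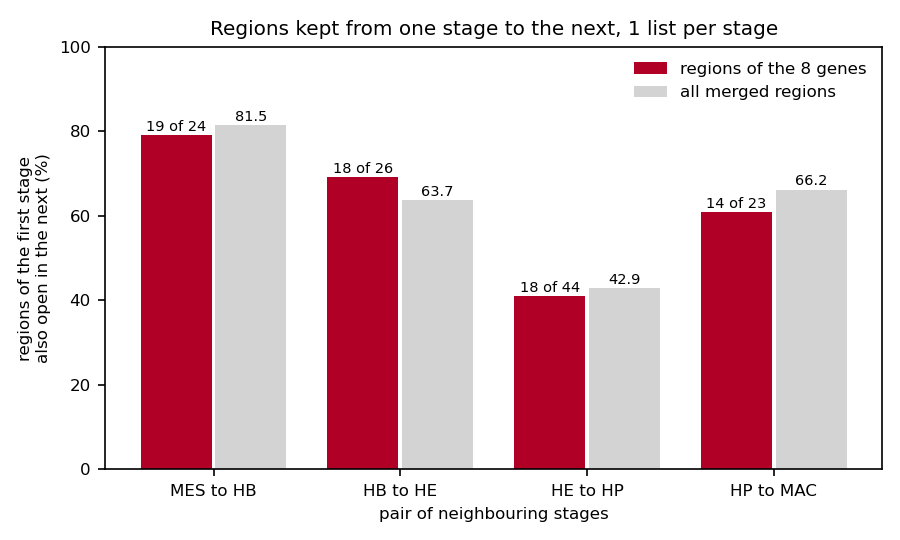
Share in percent (y axis) of the regions open in a stage that were open in the next stage too (x axis, pairs of neighbouring stages), for the 8 genes (red, with counts) and for all merged regions (grey, with the share), with 1 list per stage. The shares of the 8 genes lie within 6 percentage points of those of all regions at each step and are lowest from HE to HP.

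Motifs of the factors with which these proteins act were searched as exact letters, both strands included, in 60 of the 75 regions (500 bp around their middle), those of Tcf4 being left out. The letters of the composite contain those of the GATA motif, and a GATA and an ETS match can share 2 bases. Of the 44 searched regions beyond 2 kb, 13 (29.5%) held the GATA motif AGATAA and 3 (6.82%) the composite, against 27.2% and 2.61% of all regions beyond 2 kb. These 3 belong to Lyl1, Lmo2 and Cbfa2t3, and the match of Lmo2 lay in the region at -64.0 kb open in HB and HP and read CTGcctcagaAGATAA (chr2:103893811-103893826, minus strand). The E-box CAGATG, the E-box CAGCTG and the E-box CAGGTG were found in 14, 10 and 10 of the 44 regions (31.8%, 22.7% and 22.7%), against 37.3%, 32.3% and 26.9%. The RUNX motif TGTGGT was in 16 (36.4%, against 37.2%) and the TEAD motif CATTCC in 13 (29.5%, against 29.2%). The ETS motif AGGAAG was in 21 (47.7%, against 66.2%) and the AP1 motif TGANTCA in 7 (15.9%, against 27.1%). Within 2 kb of a TSS the ETS motif was in 12 of 16 regions (75%, against 47.7%), the GATA motif in 2 (12.5%, against 9.56%) and the composite in 0 (against 0.654%). The E-box CAGATG, the E-box CAGCTG and the E-box CAGGTG were in 6, 4 and 5 of the 16 (37.5%, 25% and 31.2%, against 19.1%, 26.3% and 31.3%). RUNX, TEAD and AP1 motifs were in 4, 2 and 2 (25%, 12.5% and 12.5%, against 20.3%, 18.5% and 8.56%). CpG-rich sequence, here a CpG ratio from 0.6 up together with a GC share from 0.5 up, made up 8 of the 16 regions within 2 kb and 3 of the 44 beyond, against 65.8% and 3.24% of all regions. The counts are small and a match describes the letters only.

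Beside the 8 partner genes, 18 other genes of the complex and its relatives were followed. Of these, 14, 13, 17, 13 and 11 had a promoter site from MES to MAC, and 9 had one in all 5 stages: Gata3, Runx1, Cbfa2t2, Ssbp2, Ssbp4 and the inhibitors of bHLH factors Id1, Id2, Id3 and Id4. Tal1 had 0, 1, 1, 1 and 1 promoter sites from MES to MAC and 2, 3, 5, 4 and 5 sites in all. At Gata2 a promoter site was missing in MAC alone, and Gata1 had no site of any kind in the 5 lists. Lmo1 had a promoter site in MES, HB and HE, while Lmo3 and Ldb2, the relative of Ldb1, had one in HE alone. Runx1, whose product acts with the complex in blood cells, had 3, 6, 8, 12 and 21 sites and a promoter site in every stage. No gene of this list had the promoter pattern of Tcf12, with a site in each stage but HP.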

How the data were processed

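DNaseI-seq was analysed from 5 deposited lists of sites, 1 per stage (n = 1). The authors used CutAdapt for trimming, Bowtie for alignment to mm10 (unique matches only), Picard for the removal of duplicates and DFilter, with bins of 100 bp, to call the sites, as the study's methods state. The submitters' processing notes also name HOMER, and versions were not given in the sources used here. Each deposited row holds a chromosome and 2 coordinates, and no score, count or p-value. The lists hold no read depth and the totals of aligned reads that the study tabulates were not used here, so no floor on detection is given.

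TSSs, genes and promoter sequences came from RefSeq (GRCm38.p6, the build of mm10). Protein-coding genes were those with a curated mRNA (NM_). Promoter sites used all annotated TSSs and the nearest gene used curated ones. Windows of 500 bp, centred on the sites, were merged by the study's minimum overlap. Annotated TSSs less than 1 kb apart formed a group. Promoter sequences were matched for 6 of the 8 genes, with 13 promoters. Lmo2 and Tcf4 were not matched. Shares carry Wilson intervals at 95%, which cover counting error only. Python 3.11.15 and pysam 0.24.0 were used, and the assignment and merging were tested on simulated data. The motif search was not tested in this way. The 8 genes, the gene lists and the motifs were chosen with earlier results of these data known. By rule, regions were given coordinates if open in all 5 stages, if beyond 2 kb and open in 3 or more stages, or if the widest of a single stage; others with coordinates were chosen after their stages were seen. Alternatives to the reach, the assignment, the merging, the width and the motif window are given at the end.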

Additional observations from a re-analysis of the deposited data

How the results depend on the processing

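Of 74 results under alternatives, 60 stayed within 1.5 times their value and 14 did not. Most of the latter came from lists cut by width. When each list was cut to sites no narrower than its median, the 8 genes had 9, 12, 27, 14 and 25 sites from MES to MAC, the merged regions came to 43, those open in all 5 stages to 3 and those of a single stage to 22. When every list was cut to as many of its widest sites as HP has, the 8 genes had 16, 17, 25, 23 and 20 sites from MES to MAC, and 4 regions were open in all 5 stages. Regions with a GATA, E-box or composite motif numbered 41 of the 60 searched, 62.5% within 2 kb and 70.5% beyond, against 62% and 77.7% of all regions. They numbered 24 with the central 200 bp and also 24 with the letters written backwards. Backward letters are not a matched control, since CAGCTG then reads GTCGAC and holds a CpG. The shares of all regions were not set beside these 2 counts, so nothing is read from them. Members with a promoter site in all 5 stages numbered 5 to 7 under each alternative, Tcf12 having none in HP in any. With a promoter reach of 100 bp, or with either cut by width, Lyl1 and Cbfa2t3 lost their promoter site in MES. Cbfa2t3 also lost those of HB and MAC at the median width, and both genes lost that of MAC in lists of equal length. Lmo2 kept its promoter site in all 5 stages under every alternative run. A region counted as open by overlap with any deposited site, an alternative chosen after seeing the data, gave 10 regions open in all 5 stages and 35 of a single stage. The cause was not tested. Read depth was not used here, so an unlisted site may be one that the list did not reach.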
